A study of Rattus norvegicus with 14 samples.

Results

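The genes described here are 7 genes of brain blood vessels: Adgrl4, Cldn5, Slc2a1, Vegfa, Flt1, Kdr and Pecam1. They were taken by name, as all probe sets that the array's annotation assigns to 1 of these genes alone, and this gave 10 probe sets of the 15923 on the array and 7 of its 10411 named genes. The list was selected on earlier learning minus control differences of these same arrays, the decrease of Adgrl4 among them, so the differences between groups below are a description and lend no independent support. RNA came from the microdissected CA3 field of the hippocampus of 14 male Long-Evans rats aged 3 to 4 months, 1 Affymetrix RAE230A array per rat, 7 rats per group. All rats had been trained in a standard water maze, and 2 to 3 weeks later all swam 8 trials at 8 min intervals in an unfamiliar maze. The learning activated group (learning) had orienting cues and a visible platform in a fixed place, whereas for the control group the visible platform changed place from trial to trial and the surroundings gave no orientation. Both groups had a 90 s probe trial without platform 1 h later and were killed straight after it.

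Capillaries of the brain are lined by endothelial cells joined by tight junctions, which close the space between cells, so that nutrients must pass through carriers in the cell membrane. Vegfa is the secreted growth factor that acts on these cells through the receptors encoded by Kdr and Flt1. In adult brain it is made largely by glia and neurons, while the receptors sit mainly on the vessels. Cldn5 encodes the main claudin of the barrier, Slc2a1 the glucose carrier GLUT1 of endothelium and, in another glycosylated form, of glia, Pecam1 the junctional adhesion molecule CD31, and Adgrl4 (formerly Eltd1) an adhesion G protein-coupled receptor of endothelial and mural cells.

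Of the 7 genes, 1 fell in the learning group, Adgrl4, to 66.2% of its control level. Kdr and Slc2a1 had lower means in the learning group without passing the adjusted threshold, Cldn5 and Vegfa differed by less than 0.1 on the log2 scale, and Flt1 and Pecam1 were too dim to be judged. Values are log2 expression levels made by the authors with GCRMA, so 1 unit is a doubling. A probe set was called dim when its mean over the 14 arrays lay below the 40th percentile of all probe sets, a log2 level of 3.88. The remaining 9520 probe sets were tested with limma, a linear model with a spread estimate shared across probe sets, and called at a Benjamini-Hochberg adjusted p under 0.05. By this rule 3.35% of the tested probe sets were called, 0.798% lower and 2.55% higher in the learning group. Of the 10 probe sets, 5 were tested (1 each of Adgrl4, Kdr, Slc2a1, Cldn5 and Vegfa) and 5 were dim. A difference in tissue RNA cannot tell fewer vascular cells from less RNA per cell.

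Of the 7 genes, 6 have an entry in the RefSeq promoter table (build GRCr8). The 250 bases before the start are shown for Adgrl4 and Kdr, which had the largest differences between groups, and for Cldn5 and Slc2a1, which varied together among the rats of a group. Capitals mark GGAA or its reverse complement, the core bound by ETS factors, a family used by many endothelial genes, and ACGTG as well as GCGTG on either strand, both forms of the core of a site of hypoxia-inducible factors. No 2 of the marked motifs overlap, and in Kdr a GCGTG adjoins a GGAA.
Adgrl4, chr2:243014689-243014938, + strand: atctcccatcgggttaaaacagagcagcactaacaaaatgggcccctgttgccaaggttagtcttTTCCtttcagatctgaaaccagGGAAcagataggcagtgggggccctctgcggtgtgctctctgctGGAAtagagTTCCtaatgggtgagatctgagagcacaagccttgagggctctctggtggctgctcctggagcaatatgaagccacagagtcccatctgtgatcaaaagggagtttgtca
Kdr, chr14:32571813-32572062, + strand: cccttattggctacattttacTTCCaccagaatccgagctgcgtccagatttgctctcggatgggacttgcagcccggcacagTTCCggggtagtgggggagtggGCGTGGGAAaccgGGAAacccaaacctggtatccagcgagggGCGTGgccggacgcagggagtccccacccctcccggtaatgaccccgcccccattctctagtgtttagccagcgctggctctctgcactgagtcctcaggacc
Cldn5, chr11:95718599-95718848, - strand: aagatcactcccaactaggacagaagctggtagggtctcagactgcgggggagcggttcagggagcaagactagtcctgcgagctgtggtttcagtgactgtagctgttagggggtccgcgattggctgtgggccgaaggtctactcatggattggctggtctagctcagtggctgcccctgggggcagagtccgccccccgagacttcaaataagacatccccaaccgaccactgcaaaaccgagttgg
Slc2a1, chr5:138002272-138002521, + strand: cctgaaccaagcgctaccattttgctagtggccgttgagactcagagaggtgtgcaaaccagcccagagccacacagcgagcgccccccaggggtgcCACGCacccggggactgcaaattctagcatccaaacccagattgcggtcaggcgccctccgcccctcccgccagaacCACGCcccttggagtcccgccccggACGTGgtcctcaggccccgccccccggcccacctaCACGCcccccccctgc
Adgrl4 and Kdr hold 4 GGAA matches each. Cldn5 and Slc2a1 hold 0, where 93.2% of all 33465 promoter windows of this length hold at least 1. The median over all windows is 3 GGAA matches. Of the genes not shown, Flt1 holds 3, and Vegfa holds 4 or 2 depending on the promoter entry. Slc2a1 holds 1 ACGTG and 3 GCGTG matches, Kdr 2 GCGTG matches, and Adgrl4 and Cldn5 neither form. Of all windows 16.6% hold ACGTG and 25.9% hold GCGTG. These matches describe the letters of the windows and were not measured as binding sites.

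Adgrl4 was measured by 1 probe set, 1387547_a_at, above the dim cutoff on all 14 arrays. In the control rats its log2 level ran from 4.32 through a median of 4.95 to 5.32. In the learning rats it ran from 4.03 through 4.28 to 4.50. All 7 learning rats lay below the control mean and 4 lay below the lowest control rat, while 6 of the 7 control rats lay above the highest learning rat, so the groups overlapped through 1 rat, control replicate 5. Means were 4.89 ± 0.36 in control and 4.29 ± 0.20 in learning rats (SD, n = 7 each). The difference was -0.60 (SE 0.14, limma adjusted p = 0.0366), the control level being 1.51-fold the learning level. Of the 9520 tested probe sets, 0.14% had a more negative difference. Its level is low, with 10.4% of tested probe sets dimmer, a range in which background correction weighs on the size of a fold. The call was lost without any 1 of 10 arrays, control replicates 1, 2, 3, 4 or 7 or learning replicates 1, 4, 5, 6 or 7, with adjusted p between 0.0530 and 0.0760 and a difference between -0.62 and -0.52. Without control replicate 5 the difference was -0.69 (adjusted p = 0.00853).

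**Figure D1:**
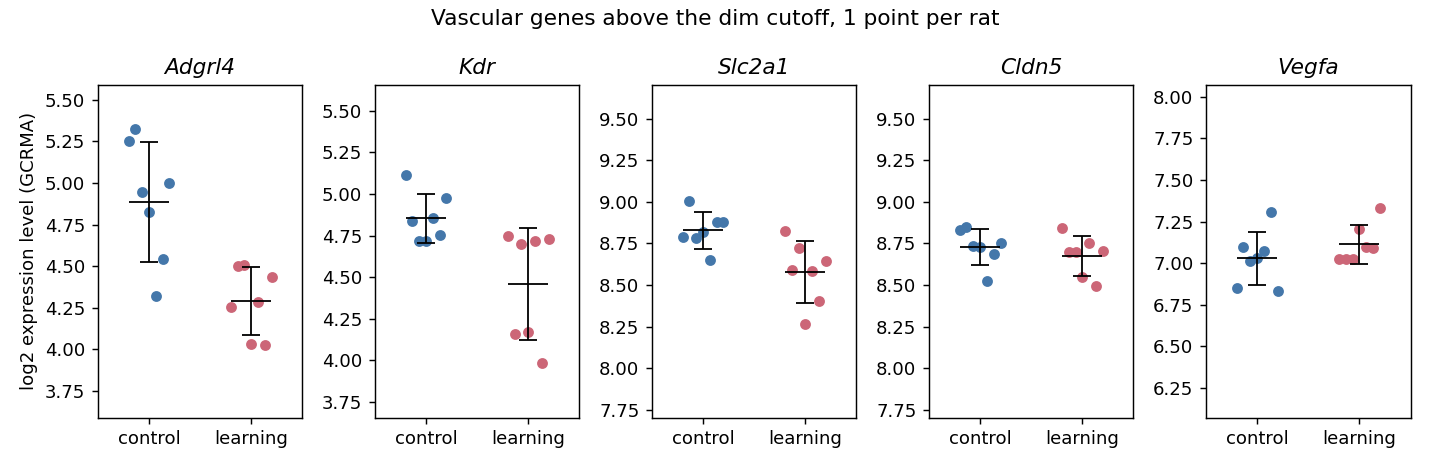
Log2 expression level (y axis, spanning 2 units in each panel) of the 5 genes above the dim cutoff in 7 control and 7 learning rats, with each point 1 rat and black bars the mean and SD. Adgrl4 is the 1 gene called, and the learning rats of Kdr fall at about 4.7 or at 4.2 and below.

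Kdr, the main signalling receptor for Vegfa on endothelium, was measured by 1367948_a_at. Control rats had log2 levels from 4.72 through 4.84 to 5.12, and learning rats from 3.98 through 4.70 to 4.75. The learning rats fell into 2 sets, with 4 between 4.70 and 4.75, at the lower edge of the control range. Learning replicates 2, 4 and 6 lay between 3.98 and 4.17, nearest the dim cutoff. All 14 arrays lay above that cutoff, but the level of Kdr is low, with 11.3% of tested probe sets dimmer. As for Adgrl4, background correction weighs on the size of a fold in this range. Its part in the 2 sets and in the group difference was not tested. The spread was larger in the learning group (SD 0.34 against 0.15), and all 7 learning rats lay below the control mean. The difference was -0.40 (SE 0.13, adjusted p = 0.0989) and was not called. It was -0.32 to -0.44 with each array left out in turn, and its adjusted p was under 0.05 in none of 24 alternative settings.

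Slc2a1, the glucose carrier, was bright (1370848_at). Control rats ran from 8.65 through 8.82 to 9.003 and learning rats from 8.27 through 8.59 to 8.83. All 7 learning rats were below the control mean and 5 were below the lowest control rat. The difference was -0.25 (SE 0.0774, adjusted p = 0.0895), which left 84.0% of the control level and was not called, although it passed without learning replicate 1 (-0.29, adjusted p = 0.0481). Of the tested probe sets, 1.83% had a more negative difference.

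Cldn5, the barrier claudin (1374104_at), had nearly the same level in both groups. Control rats ran from 8.52 through 8.74 to 8.85 and learning rats from 8.49 through 8.70 to 8.84. The ranges overlapped almost completely, with 5 learning rats below and 2 above the control mean. The difference was -0.05 (SE 0.0591, adjusted p = 0.670). Set against Cldn5 on the same array, Adgrl4 was lower by 0.54 more in the learning group, Kdr by 0.34 and Slc2a1 by 0.20. In each of these within-array differences 5 of 7 learning rats lay below every control rat. Nothing is read from this count, because the share of other probe sets that do so was not computed. Each of these differences also subtracts the same gene, Cldn5, so they are not separate observations. The control SD of these differences was 0.26 for Adgrl4, 0.15 for Kdr and 0.08 for Slc2a1. Between Adgrl4 and Kdr the within-array difference spread more widely, 0.03 ± 0.33 in control and -0.17 ± 0.29 in learning rats. There 0 learning rats lay outside the control range. Vegfa minus Kdr was higher by 0.48 in the learning group, with 4 of 7 learning rats above every control rat. These differences were not tested, because the contrast had been used in choosing the genes.

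Vegfa, the ligand, was measured by 2 probe sets. At the brighter, 1373807_at, control rats ran from 6.84 through 7.03 to 7.31 and learning rats from 7.02 through 7.09 to 7.33. The learning range lay almost wholly inside the control range. The difference was 0.09 (SE 0.0711, adjusted p = 0.540). The dim probe set 1370081_a_at ran from 3.48 to 3.81 in control and from 3.76 to 4.05 in learning rats, a difference of 0.15 (SE 0.0621, adjusted p = 0.295 when no probe sets were filtered out). All 7 learning rats lay above the control mean there, at a level not shown to be above background.

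The endothelial markers Flt1 and Pecam1 gave no usable level. Flt1, the decoy-like receptor for Vegfa, had 3 dim probe sets. The brightest, 1377113_at, had a mean just under the cutoff, 3.87 ± 0.04 in control and 3.88 ± 0.03 in learning rats, and lay above the cutoff on 7 of 14 arrays. At 1369087_at the means were 2.97 ± 0.12 and 3.14 ± 0.14, a difference of 0.17 (SE 0.0689) with an adjusted p of 0.264 when no probe sets were filtered out. At 1370492_a_at all 14 arrays lay between 2.38 and 2.44. Pecam1 (1371545_at) had means of 2.83 in both groups and spanned 0.0954 over all 14 arrays, a range this narrow being usual for levels at the background floor of GCRMA. The barrier claudin Cldn5 was thus clearly measured in this tissue, and the endothelial marker Pecam1 was not.

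**Figure D2:**
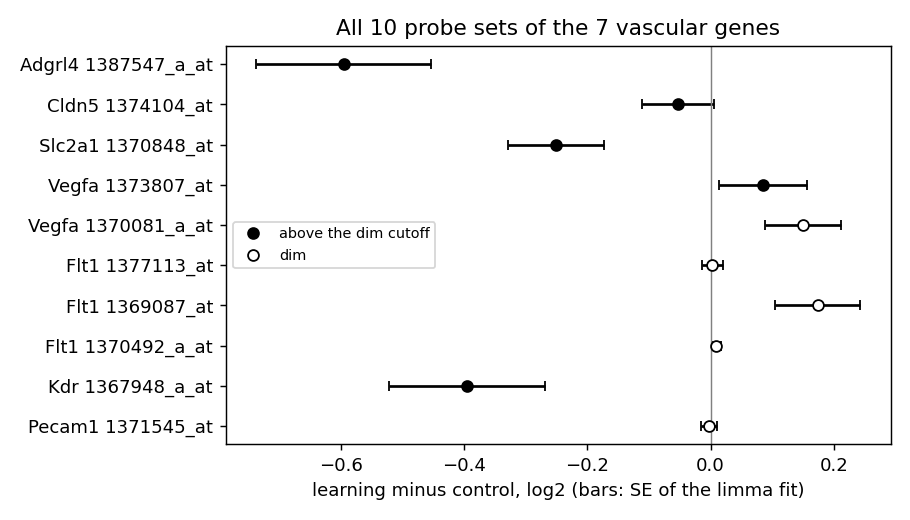
Difference in log2 level, learning minus control (x axis), for each of the 10 probe sets, with bars showing the SE of the limma fit over 7 rats per group; filled points lie above the dim cutoff and open points below it. Adgrl4 (-0.60), Kdr (-0.40) and Slc2a1 (-0.25) lie left of 0, and the remaining probe sets lie between -0.05 and 0.17.

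Among the 5 tested genes 4 had a difference below 0, beside 58.0% of all tested probe sets, and their median was -0.25, beside -0.03 over the 6836 genes taken at their brightest tested probe set. Since the genes were picked with these values in view, nothing is read from this.

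How the genes varied among rats of the same group does not depend on the difference between groups. It was measured with each rat's deviation from its group mean at the brightest probe set of each gene, over 14 rats, for all 21 pairs, with 100000 permutations of rats within groups. Adgrl4 and Cldn5 varied together (Pearson r = 0.78, permutation p = 6.10e-04, 0.0128 when adjusted over the pairs), with a Spearman rho of 0.66 (permutation p = 0.0185, 0.145 when adjusted). So did Cldn5 and Slc2a1 (r = 0.81, permutation p = 0.00139, 0.0146 when adjusted), with a rho of 0.64 (permutation p = 0.0224, 0.145 when adjusted). These 2 pairs passed by Pearson's r and 0 pairs passed by Spearman's rho. Both relations were positive within each group, 0.96 in control and 0.62 in learning rats for Adgrl4 with Cldn5, and 0.74 and 0.88 for Cldn5 with Slc2a1. Each pair was also computed without the 2 rats farthest from the 14-rat median of its first-named gene, group means not removed. For Adgrl4 with Cldn5 this left out control replicates 1 and 2 and kept control replicate 5. For Cldn5 with Slc2a1 it left out control replicate 5 and learning replicate 6. In these fits r was 0.71 and 0.77, and neither passed (permutation test, adjusted p = 0.145 for both).

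A few rats had low values of several of these genes. How far the correlations rest on all of them together was not tested. Control replicate 5 had the lowest control level of Adgrl4, Cldn5 and Slc2a1, but not of Kdr. Learning replicates 4 and 6 had the 2 lowest learning levels of Adgrl4, Cldn5 and Slc2a1, and both were among the 3 low rats for Kdr. Without control replicate 5, r was 0.68 for Adgrl4 with Cldn5 and 0.79 for Cldn5 with Slc2a1, and both just missed the threshold (permutation test, adjusted p = 0.0519 for both). Cldn5 with Kdr had r = 0.65 (adjusted p = 0.0777) with all rats and 0.78 (adjusted p = 0.0519) without that one. Adgrl4 with Slc2a1 had r = 0.57 (adjusted p = 0.0777), and Kdr with the dim Pecam1 r = 0.70 (adjusted p = 0.0777). Vegfa had negative r with each of the other 4 tested genes, from -0.40 with Adgrl4 to -0.12 with Slc2a1, none of which passed. Within groups the sign differed for Slc2a1, with 0.16 in control rats, and for Kdr, with 0.08 in learning rats. The other within-group values of Vegfa with these genes were negative.

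**Figure D3:**
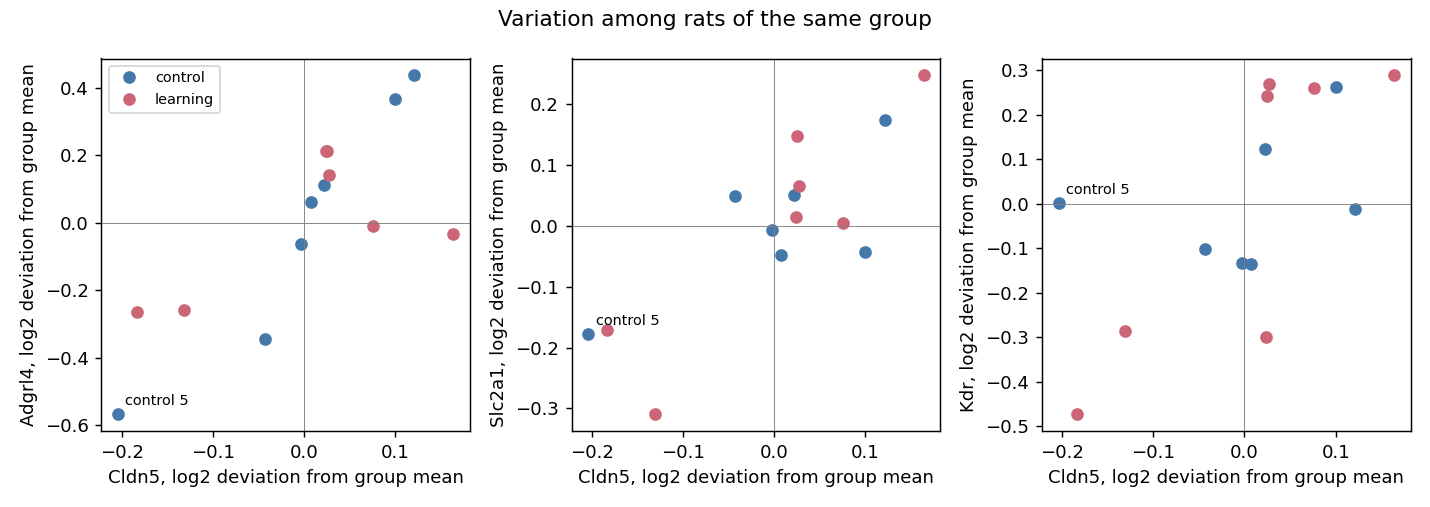
Deviation of each rat from its group mean in log2 level, with Cldn5 on the x axis and Adgrl4, Slc2a1 or Kdr on the y axis; points are 7 control and 7 learning rats, and control replicate 5 is marked. Points run from lower left to upper right for Adgrl4 (r = 0.78) and Slc2a1 (r = 0.81), and more loosely for Kdr (r = 0.65).

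Correlations of this size were not found with vascular genes alone. Of the 9520 tested probe sets, 0.0525% correlated with Cldn5 at least as highly as Slc2a1 did, and 0.126% at least as highly as Adgrl4 did. The 3 genes most like each member, by Pearson r over the 14 centred values, were Ddn (0.89), a dendritic protein, Atp1b2 (0.89), a sodium pump subunit of glia, and Dazap2 (0.88) for Adgrl4, with Cldn5 at place 18. For Cldn5 they were Mark3 (0.83), Slc2a1 (0.81) and Atp1b2 (0.80), and for Slc2a1 they were Lrrc23 (0.82), Ypel5 (0.82) and Cldn5 (0.81). For Kdr they were Selenot (0.85), Gm2a (0.84) and Hadh (0.83), and for Vegfa Lgalsl (0.85), Tsc22d3 (0.83), a glucocorticoid-induced gene, and Spart (0.81).

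Signs of RNA quality moved with some of these values. The log2 difference between the 3' and 5' control probe sets of hexokinase, which grows as RNA is shorter, correlated within groups with Adgrl4 at -0.62, Cldn5 at -0.53, Slc2a1 at -0.27 and Kdr at -0.08. It ran from 1.03 to 2.57 in control and from 1.25 to 1.41 in learning arrays. The highest was control replicate 5, with the next array, control replicate 3, at 1.61. Control replicate 5 also had the lowest median correlation with the other arrays (0.989, against 0.992 for the next). The hexokinase correlations were not computed without it, so they may rest largely on this 1 array. With the hexokinase measure as covariate the Adgrl4 difference was -0.71 (limma adjusted p = 0.0079), close to the -0.69 without control replicate 5. The same 3' to 5' difference of Gapdh was larger in control arrays (0.51 ± 0.06 against 0.45 ± 0.05), correlated with Adgrl4 at -0.50, and as covariate gave an Adgrl4 difference of -0.76 (adjusted p = 0.0490). Another measure, the balance of probe sets, is the mean log2 level of the dimmest minus that of the brightest tested probe set over the 350 genes whose probe sets lay at least 2 units apart. It separated the groups without overlap, from -3.65 to -3.34 in control and from -3.30 to -3.20 in learning arrays, and correlated within groups with Adgrl4 at 0.43. With it as covariate the Adgrl4 difference was -0.86 and the call was lost (adjusted p = 0.274). Learning and this measure cannot be told apart here. The part of RNA quality in the correlations among the genes was not tested.

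Other endothelial genes were described from lists of known markers, at the brightest tested probe set per gene. Of 24 further genes of endothelial identity 18 were on the array and 9 were tested, among them 0 called. Their median difference was -0.08, with 6 below 0 and 3 above, beside 63.9% of all genes below 0. The lowest p were those of Podxl, a sialomucin of the luminal surface (7.03 ± 0.18 against 6.70 ± 0.21, a difference of -0.33, adjusted p = 0.0710), and Ptprb, the endothelial tyrosine phosphatase (-0.20, adjusted p = 0.232). The brightest were Ramp2, a receptor-modifying protein needed for vessel integrity (0.02), and Podxl. The markers Tie1, Emcn, Erg, Sox17, Nos3, Icam2, Egfl7, Fli1 and Cd93 were dim.

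Of 27 genes of the blood-brain barrier 14 were tested and 0 were called, with a median of -0.04. Slc16a1, the lactate and ketone carrier, differed by -0.15 (adjusted p = 0.150) and Slc38a3, a glutamine carrier, by -0.16 (adjusted p = 0.173). The brightest, the basigin gene Bsg (-0.0088) and the junction scaffold Tjp1 (0.05), were nearly level.

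Of 26 other genes of VEGF, angiopoietin, Notch and related vessel signalling 8 were tested and 0 were called, with a median of -0.06. Plcg1, the phospholipase activated by the Kdr receptor, differed by -0.15 (adjusted p = 0.0950) and Notch1 by -0.13 (adjusted p = 0.379). The co-receptor Nrp1 had 0.05 and the sphingosine phosphate receptor S1pr1 -0.04. Of the other ligands Vegfb was measured (-0.10, adjusted p = 0.534), and Vegfc, Vegfd and Pgf were dim.

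Of 24 genes of hypoxia response and glucose use, which include known partners of Vegfa and Slc2a1, 15 were tested and 0 were called, with a median of -0.02. Epas1, the hypoxia-inducible factor prominent in endothelium, differed by -0.12 (adjusted p = 0.143) and the lactate dehydrogenase gene Ldha by 0.08 (adjusted p = 0.207). The glycolytic genes Hk1 (-0.02) and Pgk1 (0.02) were nearly level.

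**Figure D4:**
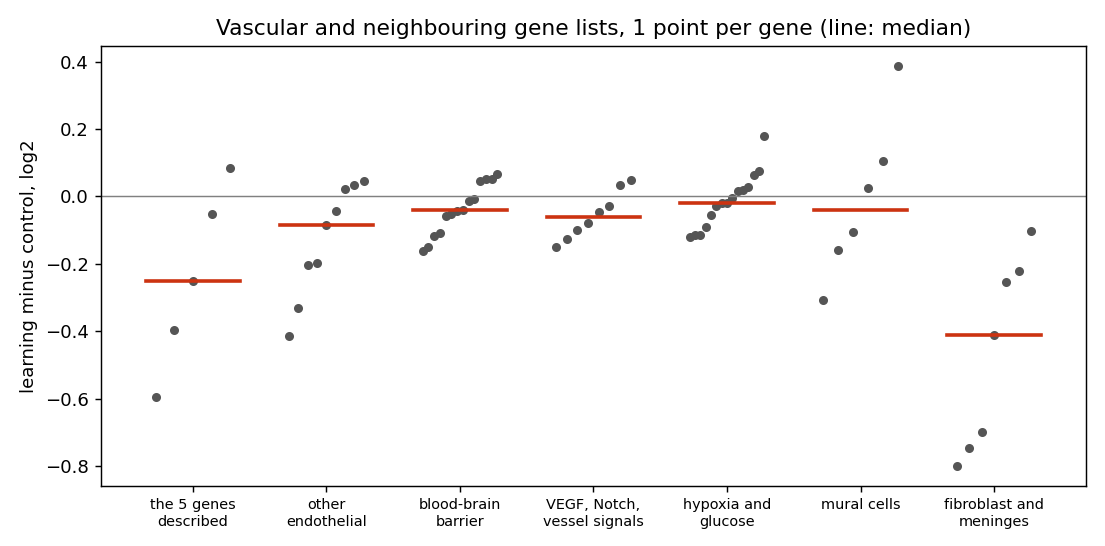
Difference in log2 level, learning minus control (y axis), for each tested gene of 6 gene lists beside the 5 tested vascular genes described above; each point is 1 gene at its brightest tested probe set and the line is the median of the list. Medians lie between -0.08 and -0.02 for the 4 endothelial and signalling lists and for mural cells, and at -0.41 for fibroblast and meningeal genes.

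Markers of the neighbouring cells of vessels differed from each other. Of 16 genes of mural cells, the pericytes and smooth muscle around vessels, 6 were tested and 0 were called, with 3 below and 3 above 0 and a median of -0.04. Rgs5 had 0.39 (adjusted p = 0.377), Vtn -0.31 (adjusted p = 0.385), Acta2 0.11 and Cald1 -0.11. Of 12 genes of fibroblasts and meninges 7 were tested, and all 7 had a difference below 0, beside 63.9% of all genes. Their median was -0.41 and 0 were called. The median was -0.22 without learning replicate 4, -0.27 with array weights, and -0.70 over the 5 genes left by a filter at the 60th percentile. Ptgds, the prostaglandin D synthase of meninges and choroid plexus, had means of 10.66 ± 0.81 in control and 9.91 ± 0.29 in learning rats (-0.75, adjusted p = 0.168). The matrix gene Dcn differed by -0.25 (adjusted p = 0.191) and Pdgfra by -0.10. The summed signal of the 7 genes on the linear scale ran from 1653 through a median of 1858 to 5810 in control arrays. In learning arrays it ran from 1242 through 1473 to 1918. Ptgds, the brightest of the 7, weighs most in this sum, which largely repeats its values. The part of meningeal tissue, whose vessels also hold these endothelial genes, in the Adgrl4 difference was not tested.

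Of the choroid plexus list 2 of 10 genes were tested, Ttr, which fell (-2.09, adjusted p = 0.0124), and Enpp2 (-0.03). Of the blood list 4 of 9 were tested and 0 called, with -0.46 for the haemoglobin gene Hbb (adjusted p = 0.227) and -0.15 for Hba-a3. Of the astrocyte list all 10 were tested and 0 called at their brightest probe sets, with 0.45 for Slc1a2, -0.21 for Aldh1l1, -0.0094 for Gja1 and -0.06 for S100b. Only Aqp4, Slc1a2, Slc1a3, Gja1 and Glul had further, dimmer tested probe sets, with 2 each for Aqp4, Slc1a3 and Glul. At these, 3 genes were called higher in the learning group, beside 2.55% of all tested probe sets. They were the water channel Aqp4 (1.10, limma adjusted p = 0.0163), the glutamate carrier Slc1a3 (0.41, adjusted p = 0.0381) and the gap junction gene Gja1 (0.74, adjusted p = 0.0301). The other dimmer probe sets of Aqp4 and Slc1a3 were not called. At their brightest probe sets Aqp4 had -0.05 and Slc1a3 -0.06, so the probe sets of these genes disagreed. The balance of probe sets described above, which separated the groups, compares such dimmer and brighter probe sets. Its part in these calls was not tested. Of 11 microglial genes 9 were tested and 0 called, with -0.40 for C1qa (adjusted p = 0.102), -0.22 for C1qc, -0.09 for Csf1r and 0.0034 for Ctss. Of 10 neuronal genes 6 were tested and 0 called, with 0.20 for Rbfox3 (adjusted p = 0.0814) and 0.12 for Snap25 (adjusted p = 0.0820). In medians these 5 lists had -1.06, -0.07, -0.05, -0.10 and -0.0022.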

How the data were processed

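The deposited table holds 1 column of log2 expression levels per array, made by the authors with GCRMA per the submitters' processing notes. The version, settings and genome build were not given in the sources used here. That the scale is log2 was judged from the values (array medians 5.07 to 5.09). GCRMA corrects background by probe sequence, so low levels crowd at a floor and their fold changes are uncertain. Rats were grouped and numbered by their titles.

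Genes come from the platform annotation. Of 12789 probe sets with 1 gene, 12754 were updated by Entrez ID to RefSeq symbols (GRCr8), 312 had several genes, and no name was used for the 2822 others. The 57 control probe sets and 6346 dim ones were left out. The remaining 9520 were fitted without covariate by limma 3.58.1 (R 4.3.3), with Benjamini-Hochberg adjustment over all of them, a procedure tested on simulated data. Arrays have no read depth, so the number of arrays limits precision. No batch label was used here. P-values set a group difference or a correlation against the variation among these rats.

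The 7 genes, the gene lists and the tests were chosen with earlier results of these data known. Named list genes are those called, or else the 2 of lowest p, and the 2 brightest, and dim markers were named beyond this. Correlations used 100000 random permutations, and their alternatives other than rho a full enumeration, because repeated random draws fell on either side of the threshold for 1 alternative. Alternatives covered filters, normalization, variance model, array weights, replicate block, covariates and each array left out. The hexokinase, dentate and probe set balance covariates, and correlations without control replicate 5, were added after seeing the data. The dentate covariate is the mean log2 level of Prox1 and Calb1, the 2 tested marker genes of the dentate gyrus.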

Additional observations from a re-analysis of the deposited data

Results flagged for a closer look

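Each of the 10 probe sets was checked in both groups for a rat far from the other 6, 20 groups in all, of which chance would mark about 5%. Both marks fell on the dim Flt1 probe set 1370492_a_at. Control replicate 5 was lowest at 2.383, with the next rat at 2.404. Learning replicate 7 was highest at 2.439, with the next at 2.416. Both gaps are small in size at a level near background.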

How the results depend on the processing

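With the main settings 319 of 9520 probe sets and 1 of the 5 tested vascular ones were called. Over all probe sets the count was 158 without a filter, 39 with the Gapdh 3'/5' covariate, 177 with the hexokinase covariate, 163 with the dentate marker covariate and 0 with the probe set balance covariate (limma, 854 at unadjusted p under 0.05), and 163 to 352 with 1 array left out. Among the vascular probe sets 0 were called without a filter (5 of 10 at unadjusted p under 0.05), with a filter at the 60th percentile (1 of 3, Adgrl4 being filtered out), with the probe set balance covariate (2 of 5) or with the dentate covariate (3 of 5), and 0 to 1 with 1 array left out. Adgrl4 kept its direction in all 24 alternatives that tested it (-0.86 to -0.52) and its call in 11, with adjusted p from 0.0079 to 0.274. With the dentate covariate its difference was -0.58 (limma adjusted p = 0.0669). Kdr, Slc2a1, Cldn5 and Vegfa kept their direction in every alternative run. Among correlations 2 pairs passed, 0 by Spearman's rho, without the 2 farthest rats or without control replicate 5. Filtering changes the number of tests, and the cause of the other changes was not tested. Replicate numbers are not shown to pair rats across groups (correlations of deviations from -0.16 to 0.13), and with the replicate block 313 probe sets and 1 vascular one (Adgrl4, adjusted p = 0.0181) were called.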
